A study of Mus musculus with 4 samples.

Results

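Tppp3, 1 of the 33696 genes in the expression matrices of peritoneal immune cells, was followed by its single row (ENSMUSG00000014846) through B cells and macrophages of mice on a high-fat diet (HFD) and on chow (CD). The mice were wild type (WT), and both diets began at 4 weeks of age and lasted 3 months. The cells came from peritoneal lavage and were sorted for the leukocyte surface protein CD45, and each diet had 1 expression library and 1 B-cell receptor library. The labels name no strain beyond WT and no number of animals, and 1 protocol note gives both the high-fat diet, so the chow assignment of CD rests on the sample titles and the series design. Diet and library therefore cannot be told apart, and no test between diets was possible.

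TPPP3 belongs to the tubulin polymerization-promoting protein family, whose members bind and bundle microtubules, and it is best known from ciliated epithelia and from the cells that sheathe tendons. B-1 cells are innate-like B cells of the body cavities. Many carry a pair of stereotyped receptors against phosphatidylcholine, built from IGHV11-2 with IGKV14-126 or from IGHV12-3 with IGKV4-91. B-2 cells, which recirculate through follicles, carry CD23 and CD21, the products of Fcer2a and Cr2. Large peritoneal macrophages are the resident phagocytes of the same cavity.

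B cells were the barcodes listed in the receptor table, 3677 of 6684 retained barcodes in the HFD library and 7112 of 13069 in the CD library. Barcodes with exactly 1 heavy and 1 light contig, 2895 in HFD and 5278 in CD, were split by V pair, and every B barcode by its unique molecular identifiers (UMIs) for Fcer2a and Cr2 together. Macrophages were barcodes outside the receptor table with 5 or more UMIs of Adgre1, Prg4, Alox15 and Garnl3, 1526 in HFD and 2243 in CD. Levels are counts per 1000000 UMIs (CPM) of the summed barcodes with exact Poisson intervals at 95%. These intervals cover counting error only, and cells of 1 library are not replicates. Tppp3 was chosen because it differed between these libraries, so its levels between diets are a description. The median depth of the retained barcodes was 6452 UMIs in HFD and 4464 UMIs in CD, and 30 barcode sequences occurred in both expression libraries.

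The V-pair and macrophage classes were examined by markers that their rules did not use. Zbtb32, a transcriptional regulator enriched in B-1 cells, had 254 CPM in IGHV11-2/IGKV14-126, 304 CPM in IGHV12-3/IGKV4-91 and 145 CPM in other V pairs in HFD. In CD it had 177, 269 and 117 CPM in the same order. Fcer2a had 3.94, 3.64 and 138 CPM in HFD and 5.73, 4.19 and 108 CPM in CD. Itgam, also a B-1 marker, went the other way in HFD, with 48.7, 50.3 and 67.1 CPM. In CD it had 93.6, 44.0 and 60.0 CPM. The macrophages had 128 CPM of Gata6, the transcription factor of resident large peritoneal macrophages, in HFD and 92.1 CPM in CD. RNA of B cells was also present among the macrophages, at 191 CPM of Cd79a, Cd79b and Ms4a1 together in HFD and 843 CPM in CD. As a level in another lymphocyte class, barcodes with T-cell markers and none of those 3 B-cell genes had 38.8 CPM of Tppp3 (28.3 to 51.97) in HFD and 45.6 CPM (32.4 to 62.3) in CD. A Tppp3 UMI occurred in 7.5% of the 240 T-marker barcodes in HFD, at a median depth of 4506.5 UMIs, and in 5.69% of the 211 in CD, at a median depth of 3618 UMIs. Without barcodes that held a UMI of 5 dendritic cell and tissue macrophage genes named further on, the T-marker level was 24.1 CPM in HFD and 42.1 CPM in CD. CPM levels at or below the T-marker level of the same library are read here as background. This reading is a comparison with the T-marker barcodes and does not mark a floor or an absence of Tppp3. In CD, B barcodes with 5 or more Fcer2a and Cr2 UMIs lay lower, at 7.90 CPM. The T-marker level rests on few barcodes. In HFD, 222 of the 240 T-marker barcodes had 0 Tppp3 UMIs and 1 had 10 or more. In CD, 199 of the 211 had 0 and 3 had 5 to 9.

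Tppp3 was higher in HFD than in CD in every receptor class of B cells, by 3.95-fold to 6.55-fold, and in HFD both phosphatidylcholine-type classes stood above all other V pairs pooled. Over all B barcodes it stood at 299 CPM (293 to 306) in HFD and 65.6 CPM (63.1 to 68.2) in CD, a ratio of 4.57 (4.37 to 4.77). The T-marker barcodes of the same libraries had a ratio of 0.852 (0.543 to 1.34), an interval that includes 1, and without those holding a UMI of the 5 dendritic cell and tissue macrophage genes the ratio was 0.574 (0.333 to 0.980), lower in HFD. B barcodes held 64.0% of all Tppp3 UMIs of retained barcodes in HFD and 57.8% in CD, while macrophages held 16.3% in HFD and 10.1% in CD.

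The 309 IGHV11-2/IGKV14-126 barcodes of HFD had 431 CPM (407 to 457), and the 379 of CD had 106 CPM (94.1 to 119), a ratio of 4.06 (3.56 to 4.65). The 178 IGHV12-3/IGKV4-91 barcodes of HFD had 375 CPM (346 to 406), and the 193 of CD had 57.2 CPM (45.5 to 71.1), a ratio of 6.55 (5.19 to 8.35). All other V pairs together had 252 CPM (244 to 260) over 2408 barcodes in HFD and 63.9 CPM (60.8 to 67.1) over 4706 in CD, a ratio of 3.95 (3.72 to 4.19). The order of the phosphatidylcholine-type classes was the same in both libraries, with IGHV11-2/IGKV14-126 over IGHV12-3/IGKV4-91 at 1.15-fold (1.04 to 1.27) in HFD and 1.85-fold (1.44 to 2.40) in CD. In CD, the intervals of the IGHV12-3/IGKV4-91 barcodes, the other V pairs and the T-marker barcodes overlapped.

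Within a class, Tppp3 was unevenly spread between barcodes. Of the IGHV11-2/IGKV14-126 barcodes, 34.0% had no Tppp3 UMI in HFD and 74.1% had none in CD, where 1 common level at the depths of the barcodes would leave 6.22% without a UMI in HFD and 52.4% in CD. Barcodes with 10 or more UMIs made up 11.3% of that class in HFD, with a highest count of 31, and 0.792% in CD, with a highest count of 13. At least 3 Tppp3 UMIs were found in 45.3% of the class in HFD and 9.50% in CD. The IGHV12-3/IGKV4-91 class had 40.4% of barcodes with at least 3 UMIs in HFD and 7.77% in CD, and 12.4% with 10 or more in HFD. In CD none of its 193 barcodes reached 10, which allows a share of up to 1.55% at 3 counts, and the exact 95% upper limit is 1.89%.

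Depth differed between the libraries, so shares were also counted after each barcode was thinned to 2000 UMIs. A Tppp3 UMI was present in 66.0% of IGHV11-2/IGKV14-126 barcodes in HFD and 25.9% in CD before thinning, and in 45.3% in HFD and 13.2% in CD after it, with 2 shallower barcodes left out in HFD and 0 in CD. In the IGHV12-3/IGKV4-91 class the shares were 64.6% in HFD and 18.7% in CD before thinning, and 42.7% in HFD and 8.81% in CD after it, with no barcode left out. T-marker barcodes thinned to the same depth had 4.63% in HFD and 3.03% in CD, with 24 shallower barcodes left out in HFD and 46 in CD. The gap between diets in both classes thus remained at equal depth and was wider than that of the T-marker barcodes.

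**Figure D1:**
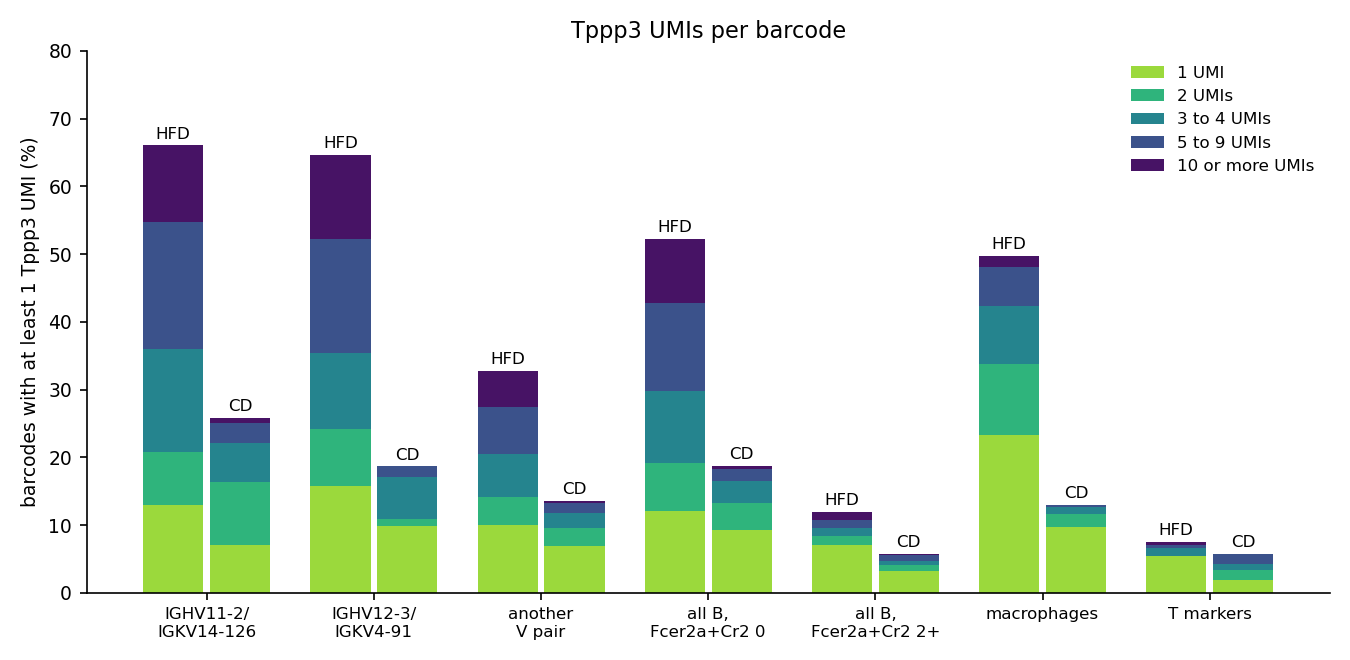
Share of barcodes with at least 1 Tppp3 UMI (vertical axis, percent), stacked by the number of Tppp3 UMIs, for each class with HFD left of CD. The IGHV11-2/IGKV14-126 bars reach 66.0% in HFD and 25.9% in CD, and bins of 5 or more UMIs fill much of the HFD bars of the 2 named receptor classes.

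Among 3633 genes with enough counts in the IGHV11-2/IGKV14-126 barcodes of both libraries, Tppp3 had the highest HFD over CD ratio, and 0.275% of those genes were at least 2-fold higher in HFD. It also ranked first of 3797 genes in the IGHV12-3/IGKV4-91 class, where the share at least 2-fold higher was 0.579%. It was first of 3909 genes in the barcodes of another V pair, with a share of 0.256%, and first of 3837 in all B barcodes, with a share of 0.235%. Because Tppp3 was chosen from this contrast, nothing is read from these ranks.

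Fcer2a and Cr2, the B-2 receptor genes, marked off the B barcodes with little Tppp3. Barcodes with 0 Fcer2a and Cr2 UMIs had 374 CPM (365 to 383) over 2409 barcodes in HFD and 81.5 CPM (78.1 to 84.9) over 4884 in CD, a ratio of 4.59 (4.37 to 4.81). Those with 2 or more had 64.3 CPM (57.3 to 72.0) over 768 barcodes in HFD and 25.9 CPM (22.1 to 30.1) over 1143 in CD, a ratio of 2.49 (2.05 to 3.03). The barcodes just under that threshold, with 1 UMI, had 211 CPM in HFD and 34.6 CPM in CD, and those with 2 to 4 UMIs had 71.2 CPM in HFD and 30.9 CPM in CD. With 5 or more UMIs the level was 48.9 CPM (38.2 to 61.7) in HFD and 7.90 CPM (3.94 to 14.1) in CD.

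The level was thus lower at each higher count of Fcer2a and Cr2 in HFD, while in CD the barcodes with 1 UMI and with 2 to 4 UMIs had overlapping intervals. The Fcer2a and Cr2 positive barcodes of CD lay below the T-marker level, at 0.567-fold (0.398 to 0.826), and are read as background. Those of HFD lay above it at 1.66-fold (1.21 to 2.32), and this rested on 142 barcodes without exactly 1 heavy and 1 light contig, which held 170 of the 305 Tppp3 UMIs and had 158 CPM (135 to 184), 4.08-fold (2.92 to 5.80) the T-marker level. The 626 positive barcodes of HFD with exactly 1 receptor pair had 36.8 CPM (30.9 to 43.6), 0.948-fold (0.672 to 1.36) the T-marker level, and are read as background too. In CD the 270 positive barcodes without exactly 1 pair had 43.4 CPM and the 873 with it had 19.1 CPM. This split was chosen after the data were seen. A Tppp3 UMI was found in 11.98% of the positive barcodes in HFD and 5.69% in CD before thinning, and in 6.66% in HFD and 2.84% in CD after it, with 17 shallower barcodes left out in HFD and 16 in CD. In these barcodes Tppp3 ranked behind Cd5l and Gm43305 by its HFD over CD ratio, among 4068 genes of which 0.147% were at least 2-fold higher in HFD. In the Fcer2a and Cr2 negative barcodes it ranked first of 3774, with a share of 0.318%, and again nothing is read from this.

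In the barcodes of another V pair alone, the contrast by Fcer2a and Cr2 was wider. This set leaves out both named receptor classes and also the barcodes without exactly 1 heavy and 1 light contig. With the named classes kept, the positive barcodes with exactly 1 pair were already at 36.8 CPM in HFD and 19.1 CPM in CD. Barcodes of another V pair had 344 CPM (332 to 355) in HFD and 83.3 CPM (79.0 to 87.9) in CD at 0 Fcer2a and Cr2 UMIs. At 2 or more they had 33.7 CPM (28.0 to 40.2) in HFD and 18.98 CPM (15.2 to 23.4) in CD. The negative barcodes stood 10.2-fold (8.51 to 12.3) above the positive ones in HFD and 4.39-fold (3.53 to 5.52) in CD. Both positive sets lay at background, at 0.867-fold (0.611 to 1.25) the T-marker level in HFD and 0.417-fold (0.282 to 0.624) in CD, so these are folds over a background level. B cells with diverse receptors and no detected B-2 marker thus carried Tppp3 above background in both libraries. The IGHV11-2/IGKV14-126 class was 1.26-fold (1.18 to 1.34) over these negative barcodes in HFD and 1.27-fold (1.12 to 1.45) in CD. In HFD the IGHV12-3/IGKV4-91 class was 1.09-fold (0.9998 to 1.19) over these negative barcodes, and in CD it was 0.687-fold (0.543 to 0.859).

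**Figure D2:**
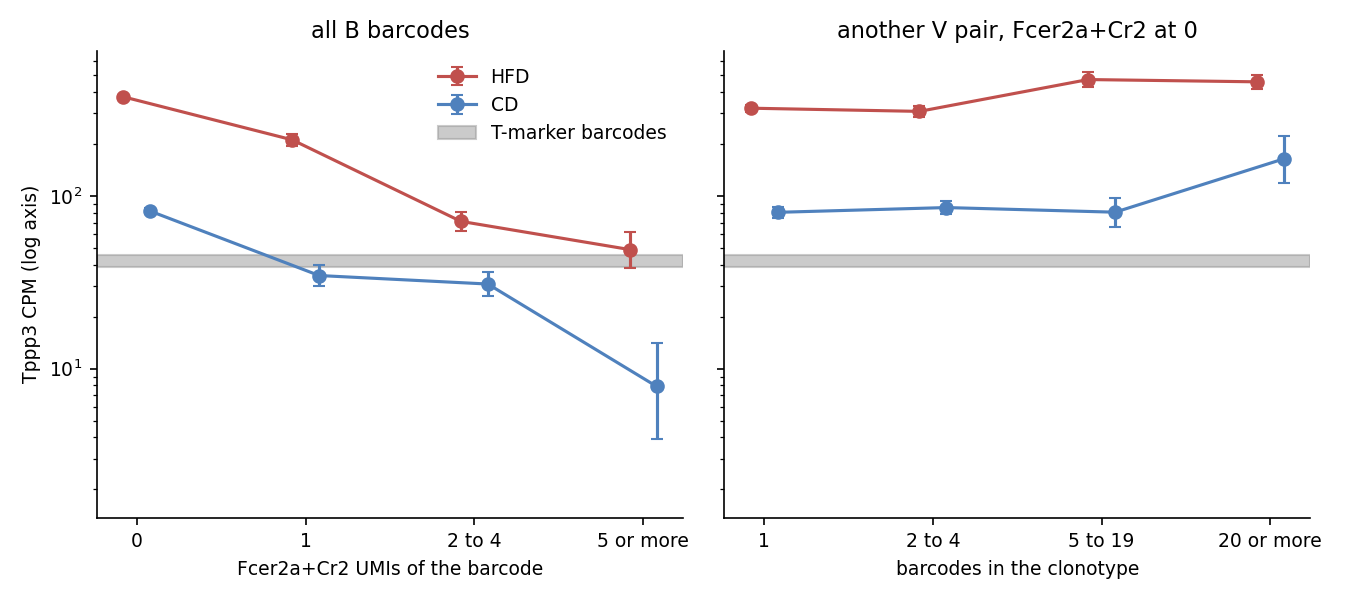
Tppp3 level in CPM (log axis) against Fcer2a and Cr2 UMIs in all B barcodes (left) and against clonotype size in Fcer2a and Cr2 negative barcodes of another V pair (right), HFD in red and CD in blue, with 95% counting intervals. The grey band spans the T-marker levels of both libraries, 38.8 CPM in HFD and 45.6 CPM in CD. HFD points go down to 48.9 CPM at 5 or more Fcer2a and Cr2 UMIs, and the CD point there is at 7.90 CPM.

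Heavy-chain class and other B-1 genes split the B barcodes further. Barcodes with an IGHM contig had 294 CPM in HFD and 68.6 CPM in CD. The IGHD barcodes had 15.6 CPM (5.06 to 36.3) over 71 barcodes in HFD and 23.7 CPM (11.4 to 43.6) over 111 in CD, below the T-marker levels of both libraries and read as background. IGHG barcodes had 97.8 CPM (64.4 to 142) over 49 barcodes in HFD and 55.3 CPM (40.5 to 73.8) over 175 in CD. The few IGHA barcodes had 0 Tppp3 UMIs over 4 barcodes in HFD, with an upper limit of 221 CPM, and 38.8 CPM (10.6 to 99.2) over 21 in CD. The IGHM barcodes were the largest class, 2768 in HFD and 4964 in CD.

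Among Fcer2a and Cr2 negative barcodes of another V pair, those with a Zbtb32 UMI had 412 CPM of Tppp3 (397 to 427) and those without had 196 CPM (181 to 212) in HFD. In CD the values were 111 CPM (104 to 119) with a Zbtb32 UMI and 55.3 CPM (50.3 to 60.7) without. Cd9, a tetraspanin of B-1 cells, gave a smaller split, with 355 CPM where it was detected and 330.4 CPM where it was not in HFD, and 82.5 CPM and 83.8 CPM in the same order in CD, and its intervals overlapped in both libraries. Cd5, which separates B-1a from B-1b cells, went the other way, with 282 CPM where detected and 351 CPM where not in HFD, and 74.6 CPM and 83.8 CPM in the same order in CD, where the intervals overlapped. Detection of these genes rises with depth. Among these barcodes the median was 7810.5 UMIs with Zbtb32 and 4396 without in HFD, and 5754.5 with and 3848 without in CD, and its part in the split was not tested. Barcodes with B-cell markers that were absent from the receptor table had 314 CPM in HFD and 73.8 CPM in CD, close to the listed ones.

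Clonotypes, defined by the same V and J genes and identical CDR3 nucleotides in both chains, allowed Tppp3 to be compared between cells of 1 receptor. There were 1990 in HFD and 3503 in CD, and 17 occurred in both libraries. Of these, 4 had at least 5 barcodes in each library, and all 4 were IGHV11-2/IGKV14-126. Their CDR3 sequences from the deposited receptor tables are shown because they are the same receptor read in both diets. Capitals mark bases that differ from the first clonotype of the same chain and length, and the third heavy chain has 42 bases against 39 in the others.
Clonotype 1, IGHV11-2 with IGHJ1: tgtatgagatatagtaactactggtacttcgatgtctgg
Clonotype 1, IGKV14-126 with IGKJ2: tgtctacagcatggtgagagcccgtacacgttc
Clonotype 2, IGHV11-2 with IGHJ1: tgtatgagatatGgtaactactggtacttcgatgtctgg
Clonotype 2, IGKV14-126 with IGKJ4: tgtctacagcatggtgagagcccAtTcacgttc
Clonotype 3, IGHV11-2 with IGHJ1: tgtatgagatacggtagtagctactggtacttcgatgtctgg
Clonotype 3, IGKV14-126 with IGKJ2: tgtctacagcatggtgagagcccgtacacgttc
Clonotype 4, IGHV11-2 with IGHJ1: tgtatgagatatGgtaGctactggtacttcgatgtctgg
Clonotype 4, IGKV14-126 with IGKJ4: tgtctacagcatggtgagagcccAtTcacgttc

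All 4 shared receptors with at least 5 barcodes in each library had more Tppp3 in HFD. Clonotype 1 had 378 CPM over 82 barcodes in HFD and 96.2 CPM over 188 in CD, a ratio of 3.94 (3.19 to 4.87). Clonotype 2 had 462 CPM over 33 barcodes in HFD and 102 CPM over 67 in CD, a ratio of 4.51 (3.21 to 6.43). These are the shared receptors with the most barcodes, and their ratios lay inside the interval of their whole class, which includes these barcodes. Clonotype 3 had 371 CPM over 8 barcodes in HFD and 154 CPM over 13 in CD, a ratio of 2.41 (1.19 to 4.995). Clonotype 4 had 585 CPM over 64 barcodes in HFD and 73.3 CPM over 6 in CD, a ratio of 7.97 (3.08 to 29.5). The last rests on 4 Tppp3 UMIs in CD, and the intervals of all 4 ratios overlapped.

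Across all clonotypes of 15 or more barcodes, the 12 of HFD lay between 253 and 610 CPM with a median of 417, and the 13 of CD between 32.2 and 171 CPM with a median of 96.2. No HFD clonotype was as low as any CD clonotype, although the counting intervals of the lowest in HFD and the highest in CD overlapped. Every one of these clonotypes held barcodes with no Tppp3 UMI as well as barcodes with at least 3, so the uneven spread was also present among cells of 1 receptor. The share with at least 3 UMIs ran from 28.6% to 62.2% in HFD and from 3.23% to 22.7% in CD.

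The largest clonotypes outside IGHV11-2/IGKV14-126 are given below because they include the highest of each library.
Largest IGHV12-3 clonotype of HFD, heavy chain: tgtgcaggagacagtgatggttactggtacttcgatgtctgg
Largest IGHV12-3 clonotype of HFD, IGKV4-91 chain: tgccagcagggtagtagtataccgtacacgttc
Largest IGHV12-3 clonotype of CD, heavy chain: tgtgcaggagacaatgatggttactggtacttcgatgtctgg
Largest IGHV12-3 clonotype of CD, IGKV4-91 chain: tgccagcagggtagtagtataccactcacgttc
Largest clonotype of another V pair in HFD, IGHV1-55 chain: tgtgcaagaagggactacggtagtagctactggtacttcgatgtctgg
Largest clonotype of another V pair in HFD, IGKV12-89 chain: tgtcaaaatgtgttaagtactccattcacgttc
Largest clonotype of another V pair in CD, IGHV1-52 chain: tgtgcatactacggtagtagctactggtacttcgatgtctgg
Largest clonotype of another V pair in CD, IGKV1-117 chain: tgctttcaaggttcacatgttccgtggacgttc

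The largest IGHV12-3/IGKV4-91 clonotype of HFD, 37 barcodes, had 610 CPM (530 to 698), the highest of all those listed, and that of CD, 62 barcodes, had 48.7 CPM (30.5 to 73.7), the second lowest of CD. The largest clonotype of another V pair in HFD, 39 barcodes, had 386 CPM (330 to 448), and that of CD, 27 barcodes, had 171 CPM (115 to 246), the highest of CD. Its V pair, IGHV1-52/IGKV1-117, was the exception to the direction of 5 V pairs compared between diets, with 159 CPM (76.0 to 292) over 12 barcodes in HFD and 247 CPM (187 to 320) over 37 in CD, and these intervals overlapped. IGHV1-55/IGKV12-89 had 435 CPM (394 to 479) over 80 barcodes in HFD and 120 CPM (76.9 to 178) over 37 in CD. IGHV8-5/IGLV1 had 528 CPM (448 to 617) over 32 barcodes of 2 clonotypes in HFD and 1 Tppp3 UMI over 12 barcodes in CD, so single pairs outside the phosphatidylcholine-type classes reached levels as high as theirs.

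**Figure D3:**
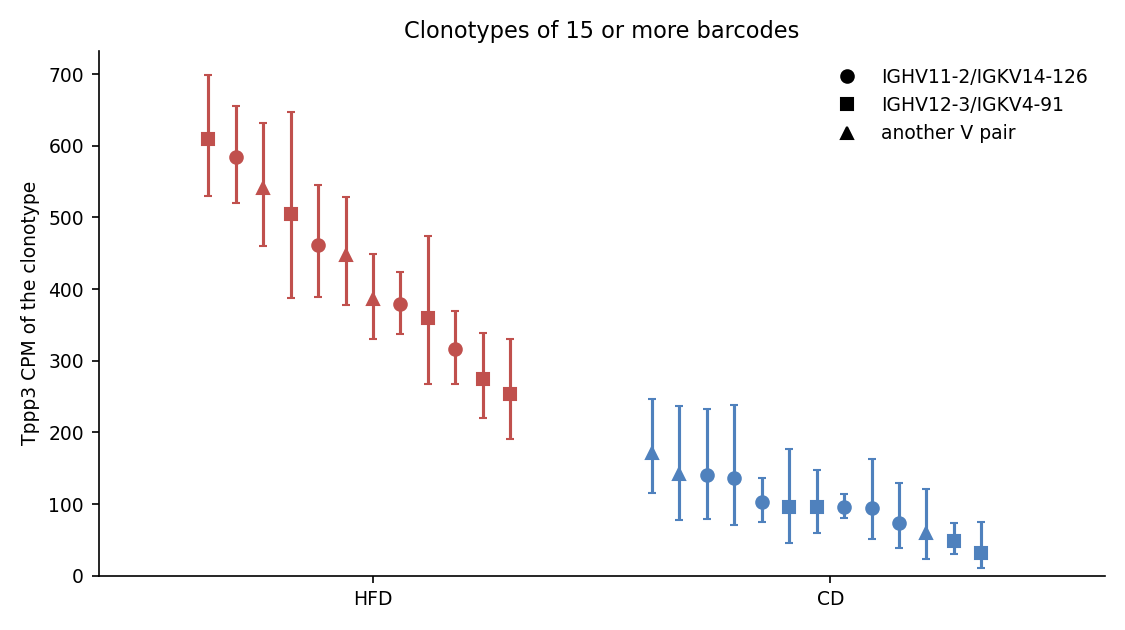
Tppp3 level in CPM of each clonotype with 15 or more barcodes, 12 in HFD and 13 in CD, ordered from high to low within a library, with 95% counting intervals. Symbols give the V pair. HFD clonotypes lie between 253 and 610 CPM and CD clonotypes between 32.2 and 171 CPM, and IGHV12-3/IGKV4-91 clonotypes stand at both ends of the HFD range.

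Clonotype size went with Tppp3 among barcodes of another V pair. In HFD, single barcodes had 216 CPM, clonotypes of 2 to 4 barcodes 257 CPM, of 5 to 19 barcodes 457 CPM and of 20 or more 448 CPM. In CD the same sizes had 56.6, 71.8, 84.7 and 160.3 CPM. Part of this order coincided with the B-2 markers: in Fcer2a and Cr2 negative barcodes alone the HFD levels were 321, 308, 470.5 and 456 CPM, and the CD levels 80.2, 85.5, 80.4 and 164 CPM. Within those, clonotypes of 20 or more stood 1.42-fold (1.28 to 1.57) over single barcodes in HFD and 2.04-fold (1.46 to 2.78) in CD. The largest size class rests on 91 barcodes in HFD and 45 in CD from few clonotypes, and depth moved with size in HFD, at a median of 10389 UMIs in the largest class and 6412 in single barcodes. In CD it was 4264 UMIs in the largest class and 5530 in single barcodes.

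To name genes that go with Tppp3, B barcodes with 3 or more Tppp3 UMIs, 893 in HFD and 309 in CD, were set against those with 0, 2188 in HFD and 6019 in CD. S100a4, S100a6, Anxa2, Lgals1, Lgals3 and the tubulin Tubb2b were among the genes higher in the Tppp3-high barcodes of both libraries, and Fcer2a, Cr2 and other B-2 genes were lower. Of 3678 genes with enough counts, 1.47% were at least 1.5-fold higher and 1.74% at least 1.5-fold lower in both libraries. The Tppp3-high barcodes were deeper, with a median of 9168 UMIs against 5129 in the Tppp3-zero barcodes in HFD, and 7807 against 4390 in CD. With each barcode thinned to 2000 UMIs and Tppp3-high set at 2 or more UMIs, 48 of 48 named ratios kept their direction. Of them, 27 left their counting intervals, 21 of these toward 0. All thinned ratios of named genes below use this lower limit in B barcodes, and 1 or more UMIs in macrophages. Depth and the make-up of the groups therefore changed together.

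Ranked by the ratio nearer to 0 of both libraries, S100a4, which codes for a calcium-binding protein, came first. It had 507 CPM in Tppp3-high and 153 CPM in Tppp3-zero barcodes of HFD, a log2 ratio of 1.73, and 540.1 CPM against 175 CPM in CD, a log2 ratio of 1.63. Gas7, which codes for an actin-associated protein, had log2 ratios of 1.77 in HFD and 1.44 in CD. Anxa2, a membrane-binding annexin, had 1.59 in HFD and 1.32 in CD.

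Tnfrsf8, which codes for CD30, had log2 ratios of 1.66 in HFD and 1.30 in CD, and Prkar2b, a regulatory subunit of protein kinase A, had 1.54 and 1.27. Tubb2b, a beta tubulin, had 55.2 CPM in Tppp3-high against 20.9 CPM in Tppp3-zero barcodes in HFD and 49.7 CPM against 20.7 CPM in CD, log2 ratios of 1.40 in HFD and 1.27 in CD. The galectin gene Lgals3 had 1.49 in HFD and 1.26 in CD, and its relative Lgals1 had 1.12 and 1.14. S100a6 had 1.30 in HFD and 1.10 in CD, the LIM-domain gene Crip2 1.10 and 1.22, and Chst7, a sulfotransferase, 1.05 and 1.17.

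Krt8, a keratin of epithelia and mesothelium, had log2 ratios of 2.39 in HFD and 1.25 in CD, but in the IGHV11-2/IGKV14-126 barcodes alone the CD ratio was -0.0040. The 10 mesothelial marker genes together had 62.4 CPM in Tppp3-high and 14.4 CPM in Tppp3-zero barcodes in HFD, and 41.8 CPM against 19.5 CPM in CD. Krt8 was the single member of that list with enough counts, and the part of mesothelial RNA was not tested.

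Among the genes lower in Tppp3-high barcodes, Vpreb3, which codes for a pre-B-cell receptor-associated protein, had 3.99 CPM against 67.5 CPM in Tppp3-zero barcodes in HFD, a log2 ratio of -4.06, and 3.93 CPM against 48.5 CPM in CD, a log2 ratio of -3.56. Fcer2a had log2 ratios of -4.16 in HFD and -2.56 in CD, and Cr2 had -3.09 and -2.29. Icosl, a T-cell costimulatory ligand, had -2.40 in HFD and -2.16 in CD. These are genes of B-2 cells, and the split by Tppp3 followed the split by Fcer2a and Cr2 described above.

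Chchd10, a mitochondrial protein gene, had log2 ratios of -2.46 in HFD and -2.02 in CD. Fcrl1, an Fc receptor-like protein of B cells, had -1.87 and -1.64, and Ccr7, the chemokine receptor of lymph node entry, had -1.91 and -1.48. The others named by the rule were Dusp2, Gpr171, Lmo2, Neurl3 and Cpm, with log2 ratios between -2.36 and -1.65 in HFD and between -1.46 and -1.35 in CD.

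To see which of these differences remained without B-2 cells, the contrast was repeated in Fcer2a and Cr2 negative barcodes, 797 Tppp3-high and 1151 Tppp3-zero in HFD, and 270 and 3969 in the same order in CD. Of 3575 genes, 0.839% were at least 1.5-fold higher and 0.559% at least 1.5-fold lower in both libraries. Among the 12 highest genes of all B barcodes, 9 were also among the 10 highest here, namely Anxa2, Crip2, Gas7, Lgals3, Prkar2b, S100a4, S100a6, Tnfrsf8 and Tubb2b. The 797 and 270 Tppp3-high barcodes are part of the 893 in HFD and 309 in CD used before. Shared genes, higher or lower, are therefore largely built in and are no separate support. The tenth was Atrnl1, with log2 ratios of 0.96 in both libraries, but after thinning its CD ratio was -0.052.

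Of the lower genes, 5 were shared with the 12 of all B barcodes, namely Ccr7, Chchd10, Dusp2, Fcrl1 and Lmo2. Chchd10 had 12.1 CPM in Tppp3-high against 50.8 CPM in Tppp3-zero barcodes in HFD and 17.8 CPM against 61.6 CPM in CD, log2 ratios of -2.06 in HFD and -1.78 in CD. Ccr7 had -1.68 in HFD and -1.19 in CD. Fcrl1 had -1.26 in HFD and -1.35 in CD, but 0.093 in CD after thinning. Irf8, a transcription factor of the interferon-regulatory family with roles in B cells and macrophages, had -0.99 in HFD and -0.94 in CD. Lrrk2, Ms4a4c, Cd69 and BE692007 completed the list, with log2 ratios between -1.52 and -0.78 in HFD and between -1.17 and -0.84 in CD.

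**Figure D4:**
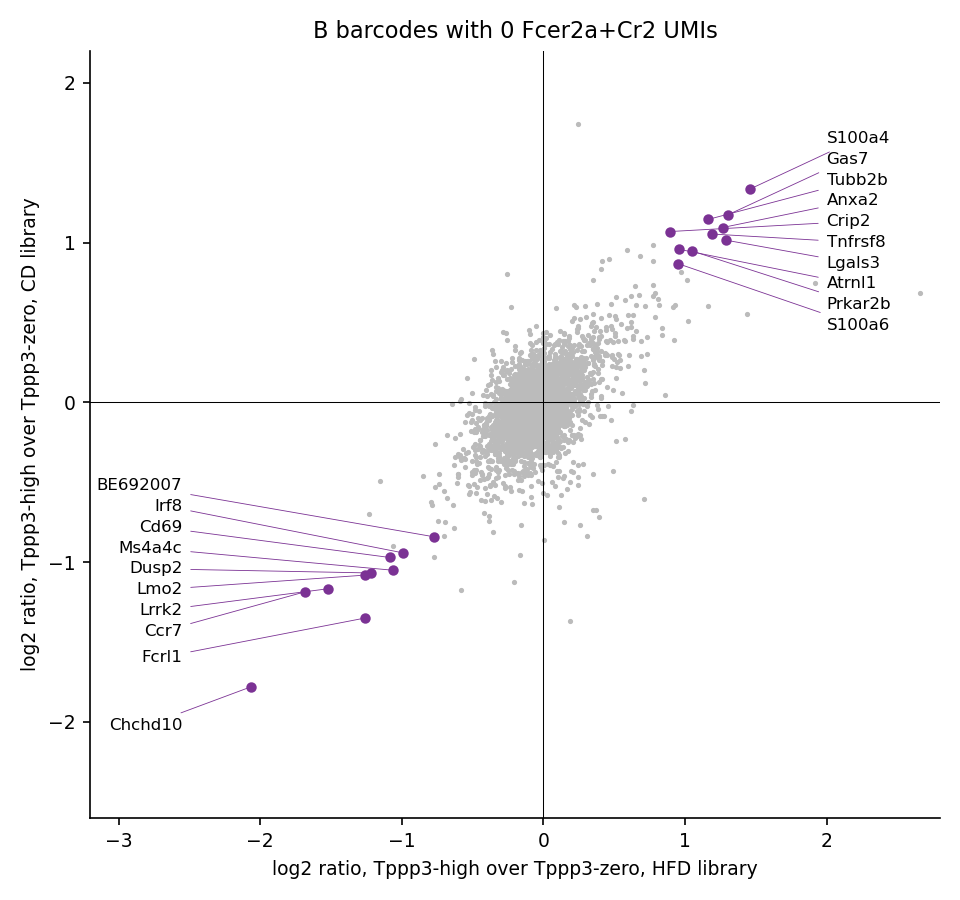
Log2 ratio of Tppp3-high over Tppp3-zero barcodes for each of 3575 genes in Fcer2a and Cr2 negative B barcodes, HFD on the horizontal and CD on the vertical axis. Named genes are in purple. S100a4 ranked first among the higher genes, at 1.46 in HFD and 1.34 in CD, and Chchd10 among the lower ones, at -2.06 in HFD and -1.78 in CD.

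Within the IGHV11-2/IGKV14-126 class, where the V genes were held constant, 140 Tppp3-high barcodes stood against 105 Tppp3-zero barcodes in HFD and 36 against 281 in CD. Of 3386 genes, 1% were at least 1.5-fold higher and 0.561% at least 1.5-fold lower in both libraries. Gas7, Lgals3 and S100a4 were again among the highest, and they were the 3 genes named as higher in all 3 sets of B barcodes. These sets share barcodes, so the recurrence is no separate support. S100a4 had 515 CPM in Tppp3-high against 210.1 CPM in Tppp3-zero barcodes in HFD and 537 CPM against 236 CPM in CD, log2 ratios of 1.29 in HFD and 1.19 in CD. Lgals3 had 1.40 in HFD and 1.53 in CD, and Gas7 had 1.06 and 0.98.

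The other higher genes by the rule were Id2, an inhibitor of basic helix-loop-helix factors, Dusp1, Tmem176a, the membrane protein gene Myadm and the beta tubulin Tubb2a. Tubb2a had log2 ratios of 1.05 in HFD and 0.88 in CD, and Myadm 0.98 and 0.93. Id2, at 1.49 in HFD and 2.21 in CD, was detected in 5 of the 36 CD barcodes, and 22 of its 40 UMIs there came from 1 barcode. Without the CD barcode with 2 or more UMIs of the 5 dendritic cell and tissue macrophage genes, the CD ratio of Id2 was 1.62, that of Lgals3 0.998, that of Dusp1 0.58, against 1.12 with it, and that of Tmem176a 0.051, against 0.97 with it. The lower genes included Slpi, a secreted protease inhibitor, which had 765 CPM in Tppp3-high and 1532 CPM in Tppp3-zero barcodes in HFD, and 138 CPM against 1079.7 CPM in CD. Its CD ratio turned to 0.95 on the log2 scale when Tppp3-high began at 2 UMIs. Gm43305 had -0.84 in HFD and -1.22 in CD, but 0.089 in CD after thinning. Saa3, Oosp1, Cnot6l, Tec, Irf8 and Stt3a made up the rest, with log2 ratios between -1.34 and -0.67 in HFD and between -1.67 and -0.74 in CD, and 7 to 27 UMIs each in the 36 Tppp3-high barcodes of CD. Markers of other myeloid cells were concentrated in single barcodes in CD, and in HFD for the small macrophage and monocyte list but not for the dendritic cell list. The dendritic cell list summed to 73.2 CPM in Tppp3-high against 2.61 CPM in Tppp3-zero barcodes in HFD and to 171 CPM against 4.65 CPM in CD, and the small macrophage and monocyte list to 222 CPM against 28.7 CPM in HFD and 212 CPM against 121 CPM in CD. All 67 dendritic cell UMIs of the CD Tppp3-high barcodes came from 1 barcode, and 35 of the 108 in HFD came from 1 of 11 barcodes. For the small macrophage and monocyte list, 1 barcode held 72 of 83 UMIs in CD and 1 held 260 of 328 in HFD.

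The family and pathway of TPPP3 were examined as gene lists. Tppp, the founding relative, had 11.2 CPM over all B barcodes in HFD and 13.4 CPM in CD, and Tppp2 had 0 UMIs in both libraries. Tppp did not have enough counts to enter the ratios, and in HFD it stood at 15.2 CPM in Tppp3-high against 8.996 CPM in Tppp3-zero B barcodes, and in CD at 18.9 CPM against 12.8 CPM. Of 9 tubulin genes with enough counts in all B barcodes, 3 were at least 1.5-fold higher in Tppp3-high barcodes of both libraries, namely Tubb2b, Tubb2a and Tubb6, and 0 were lower, beside 1.47% of all genes higher and 1.74% lower. The median log2 ratio of the 9 was 0.32 in HFD and 0.49 in CD, and that of all genes was -0.08 in HFD and -0.04 in CD. Tubb6 had log2 ratios of 1.40 in HFD and 0.61 in CD.

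In IGHV11-2/IGKV14-126 barcodes 2 of 8 tubulins were at least 1.5-fold higher, Tubb2a and Tuba1a, beside 1% of all genes. In Fcer2a and Cr2 negative barcodes 2 of 9 were, Tubb2b and Tubb2a, beside 0.839% of all genes. The list itself was not tested. Of 13 microtubule regulators with enough counts in all B barcodes, 0 were past 1.5-fold in either direction, beside 1.47% of all genes higher and 1.74% lower. The 24 motile cilia genes had none with enough counts, and together had 42.7 CPM in Tppp3-high against 52.5 CPM in Tppp3-zero barcodes in HFD, and 52.2 CPM against 38.9 CPM in CD. Between diets, 0 of 9 tubulins and 0 of 15 microtubule regulators were past 2-fold in all B barcodes. Of all 3837 genes with enough counts, 9 were at least 2-fold higher in HFD and 16 at least 2-fold lower. At so small a share, counts of 0 say little about these lists. The largest tubulin log2 ratios of HFD over CD were 0.55 for Tubb2b and 0.44 for Tuba1c.

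Of 14 B-1 genes, 7 were at least 1.5-fold higher in Tppp3-high barcodes and 0 lower, beside 1.47% and 1.74% of all genes, with a median log2 ratio of 0.84 in HFD and 0.58 in CD. Zbtb32 had 261 CPM in Tppp3-high against 110.0 CPM in Tppp3-zero barcodes in HFD and 224 CPM against 114 CPM in CD. Of 11 B-2 genes, 0 were higher and 7 lower, beside the same shares of all genes, with medians of -1.05 in HFD and -0.73 in CD. In Fcer2a and Cr2 negative barcodes 4 of 14 B-1 genes were higher and 2 of 8 B-2 genes lower, beside 0.839% and 0.559% of all genes. In IGHV11-2/IGKV14-126 barcodes 2 of 17 B-1 genes were higher, Lgals1 and Vim, and 0 of 7 B-2 genes were lower, beside 1% and 0.561%. Both lists were chosen with these data known, and their directions are a description.

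Lists for other states gave few members past 1.5-fold in all B barcodes. None of 7 antibody secretion genes, 2 cell cycle genes, 10 heat shock and immediate early genes or 4 signs of RNA quality passed in either direction. B barcodes with 2 or more UMIs of Mki67, Top2a, Cdk1 and Ccnb2 had 319 CPM of Tppp3 over 56 barcodes in HFD and 85.3 CPM over 52 in CD, close to the whole.

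Markers of other cells were measured at the same limit, again beside 1.47% of all genes higher and 1.74% lower. Of 10 large macrophage genes 0 passed, and the 20 genes of that list summed to 3134 CPM in Tppp3-high against 2479 CPM in Tppp3-zero barcodes in HFD, and to 4351 CPM against 5835 CPM in CD. Of the small macrophage and monocyte genes, the only 1 with enough counts, Retnla, was higher, and that list summed to 215 CPM against 68.9 CPM in HFD and 571 CPM against 307 CPM in CD, where 1 barcode held 863 of the 1599 UMIs of the Tppp3-high barcodes. None of 9 B-cell genes and not the 1 T-cell gene with enough counts, Cd2, passed. Dendritic cell genes summed to 34.4 CPM against 23.0 CPM in HFD and 108 CPM against 26.4 CPM in CD, with no member at enough counts, and 1 barcode held 67 of the 301 UMIs of the CD Tppp3-high barcodes. Lists for NK and innate lymphoid cells, neutrophils and mast cells had no member with enough counts, and of the fibroblast and tendon sheath list Prg4 alone had them and did not pass.

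A set of 5 genes of dendritic cells and tissue macrophages, Cd209a, Mgl2, Clec10a, Cbr2 and Folr2, was chosen after the data were seen. It summed to 42.0 CPM in Tppp3-high against 9.54 CPM in Tppp3-zero B barcodes in HFD, and to 149 CPM against 31.4 CPM in CD. The 63 B barcodes of HFD with 2 or more of these UMIs had 213 CPM of Tppp3, and the 160 of CD had 100.7 CPM. B barcodes with none of these 5, under 2 macrophage UMIs and under 2 Cd3 UMIs had 300.5 CPM in HFD and 66.1 CPM in CD, so the B-cell level was as large without the mixed barcodes. Without barcodes with 2 or more UMIs of the 5 genes, none of the named B-cell genes with a value changed direction. B barcodes with 5 or more macrophage UMIs had less Tppp3 than the whole, 146 CPM over 103 barcodes in HFD and 52.6 CPM over 424 in CD.

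Macrophages carried less Tppp3 than B cells in both libraries, and by CPM were above the T-marker level in HFD only. They had 95.7 CPM (91.6 to 99.99) in HFD and 30.1 CPM (27.3 to 33.0) in CD, a ratio of 3.19 (2.87 to 3.54). B barcodes stood 3.13-fold above them in HFD and 2.18-fold in CD. Against the T-marker barcodes, macrophages were at 2.46-fold (1.83 to 3.39) in HFD and at 0.659-fold (0.475 to 0.940) in CD. By CPM the CD macrophage level is therefore read as background in the sense given above, and the ratio between diets as one against such a level. The T-marker level is no floor in CD, where B barcodes with 5 or more Fcer2a and Cr2 UMIs had 7.90 CPM. Absence of Tppp3 from CD macrophages is thus not shown.

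A Tppp3 UMI occurred in 49.7% of macrophages in HFD at a median depth of 12275 UMIs and in 13.02% in CD at 4966 UMIs. After thinning to 2000 UMIs the shares were 17.7% in HFD and 5.37% in CD, with 64 shallower barcodes left out in HFD and 250 in CD. Both shares were above those of the T-marker barcodes at the same depth given earlier. In CD the share and the CPM thus placed macrophages differently against the T-marker barcodes, and the CD gap in shares was not tested. At least 3 UMIs were present in 15.9% in HFD and 1.43% in CD, and the highest counts were 32 in HFD and 17 in CD. Tppp3 ranked behind Klk8, Ccl2, Ccl7, Emb, Car6, Emp1 and Stmn1 among 4000 genes by HFD over CD ratio in macrophages, where 1.05% were at least 2-fold higher in HFD.

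B-cell RNA in macrophage barcodes was measured through Cd79a, Cd79b and Ms4a1. Per 1000 UMIs of these genes there were 500.2 Tppp3 UMIs in macrophages and 46.3 in B barcodes of HFD, and 35.6 in macrophages and 10.5 in B barcodes of CD. Macrophages with none of the 3 genes had 95.03 CPM of Tppp3 (88.7 to 102) over 576 barcodes in HFD and 32.95 CPM (27.6 to 39.1) over 606 in CD, so the HFD level was as large without detected B-cell transcripts. It was 2.45-fold (1.81 to 3.38) the T-marker level in HFD and 0.723-fold (0.502 to 1.06) in CD.

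Tppp3 was not the same across the macrophages of HFD. By the summed UMIs of the 4 genes that defined them, it was 184 CPM (143 to 233) at sums of 5 to 9, 223 CPM (180.0 to 273) at 10 to 19 and 91.4 CPM (87.3 to 95.7) at 20 or more. In CD the same bins had 56.6, 37.2 and 28.0 CPM. The lower bins were shallow, with medians of 2332 and 3166 UMIs in HFD, and held more B-cell RNA, with 1609 and 1927 CPM of the 3 B-cell genes in HFD, against 129 CPM at sums of 20 or more. Its part in the higher Tppp3 there was not tested.

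Macrophages with 2 or more UMIs of Mki67, Top2a, Cdk1 and Ccnb2 had 65.2 CPM (57.5 to 73.7) over 201 barcodes in HFD and those with none had 109 CPM (103 to 114) over 1133, a ratio of 0.600 (0.523 to 0.685). In CD 33 cycling barcodes had 35.7 CPM (19.98 to 58.9) and the others 30.3 CPM (27.4 to 33.3), and these intervals overlapped. Timd4, a receptor of resident macrophages for dying cells, made no difference beyond counting error, with 94.6 CPM at 2 or more UMIs and 91.4 CPM at 0 in HFD, a ratio of 1.03 (0.935 to 1.14). Macrophages with 2 or more UMIs of Ccr2, the receptor of monocyte recruitment, had 127 CPM (106 to 151) over 47 barcodes and those with 0 had 94.2 CPM (89.96 to 98.7) in HFD, and 43.8 CPM (32.7 to 57.4) and 28.7 CPM (25.9 to 31.8) in the same order in CD.

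**Figure D5:**
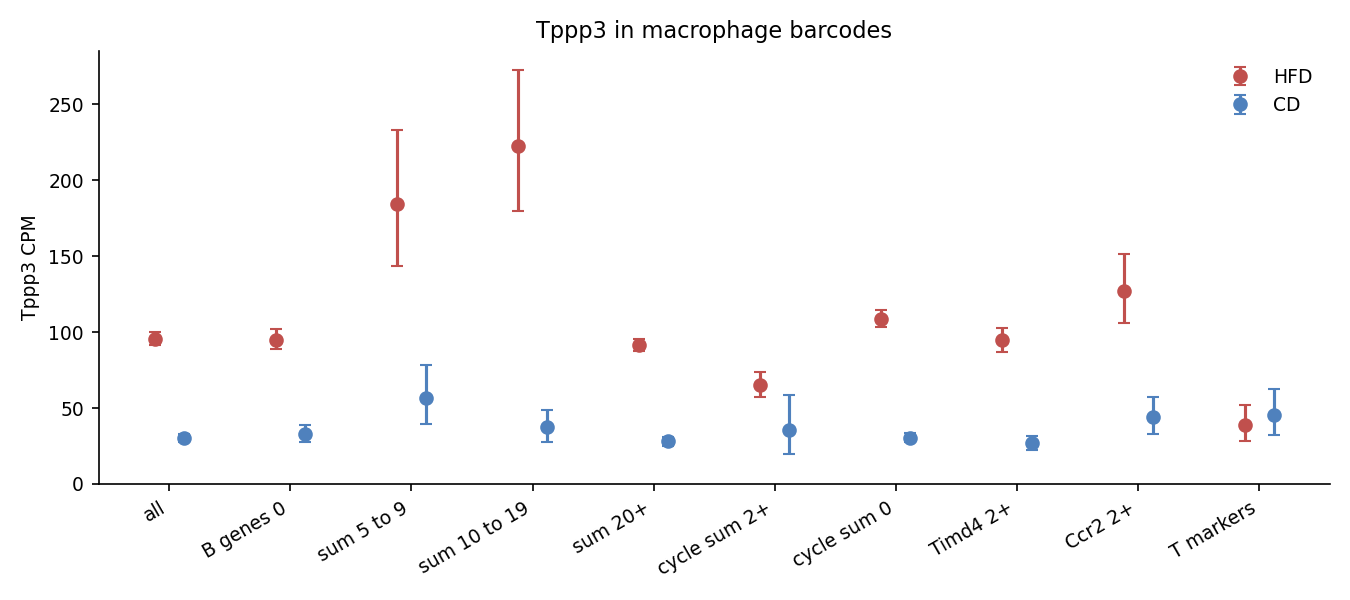
Tppp3 level in CPM in macrophage barcodes and their subsets, HFD left of CD, with 95% counting intervals, and the T-marker barcodes at the right. Sums are UMIs of the 4 defining genes. HFD macrophages with no UMI of the 3 B-cell genes are at 95.03 CPM, and the highest CD macrophage subset is at 56.6 CPM.

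In macrophages the same contrast used barcodes with 2 or more Tppp3 UMIs, 403 in HFD and 73 in CD, set against 768 and 1951 with none, in the same order. Of 3633 genes, 0.33% were at least 1.5-fold higher and 0.0275% at least 1.5-fold lower in both libraries. The rule asks for 1 direction in both libraries, and the CD macrophage level is read as background by CPM, so the CD ratios come from a class at that level. Depth differed, with medians of 16155 UMIs in Tppp3-high and 9969 in Tppp3-zero barcodes in HFD, and 12159 and 4673 in CD.

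H2-Ab1, an MHC class II gene, had 221 CPM in Tppp3-high against 120.2 CPM in Tppp3-zero macrophages in HFD and 653 CPM against 331 CPM in CD, log2 ratios of 0.88 in HFD and 0.98 in CD. H2-Eb1 had 1.15 in HFD and 0.71 in CD. Tuba1a, an alpha tubulin, had 137 CPM against 77.4 CPM in HFD and 153 CPM against 83.1 CPM in CD, log2 ratios of 0.83 and 0.89. S100a6, which was also named in B cells, had 0.68 and 0.92. Slc16a3, a lactate transporter, had 0.80 and 1.08, and Rhoc, a small GTPase, 0.75 and 0.84. Tcim had 0.73 in both libraries, and the histone gene H2ac24 had 0.80 and 1.76 but -0.94 in CD after thinning.

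The lower genes in macrophages were Efcab5, Ccl5, Tha1, Gm38832, Cxcl1, Pomk, Gm20619 and Irf8, with log2 ratios between -0.71 and -0.51 in HFD and between -1.26 and -0.49 in CD. After thinning, with Tppp3-high at 1 or more UMIs, Ccl5, Tha1, Cxcl1, Pomk and Irf8 had ratios above 0 in CD, and Tha1 and Irf8 also in HFD. Only Efcab5, Gm38832 and Gm20619 had no reversal in the alternatives that gave a value.

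Of 7 tubulins with enough counts in macrophages, 1 was at least 1.5-fold higher in Tppp3-high barcodes, Tuba1a, beside 0.33% of all genes, and the median log2 ratio was 0.32 in HFD and 0.43 in CD, against 0.02 and 0.00 over all genes. Of 4 B-cell genes with enough counts, 1 was higher, the light-chain constant gene Igkc. That list summed to 405 CPM in Tppp3-high and 266 CPM in Tppp3-zero macrophages in HFD, and to 1705 CPM against 1385 CPM in CD, and the part of B-cell RNA in these differences was not tested. Signs of RNA quality summed to 3204 CPM against 3266 CPM in HFD and to 2419 CPM against 3569.5 CPM in CD, and the small macrophage and monocyte list to 1369 CPM against 948 CPM in HFD and 3118 CPM against 2412 CPM in CD. Of 13 microtubule regulators 0 passed, beside 0.33% of all genes higher and 0.0275% lower. Between diets in macrophages, 0 of 7 tubulins were past 2-fold. Of 14 regulators 1 was higher in HFD, Stmn1, which codes for the microtubule-destabilizing protein stathmin, with a log2 ratio of 1.68. Of all 4000 genes with enough counts, 42 were at least 2-fold higher in HFD and 83 at least 2-fold lower, so little is read from these counts. Tppp in macrophages was at 1.66 CPM in HFD and 3.41 CPM in CD.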

How the data were processed

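The deposited expression matrices hold counts of UMIs per gene and barcode, without normalization, and were written by Cell Ranger 8.0.1 per the file headers. Build mm39, Seurat 4.3.0 and Cell Ranger 6.0.1 stand in the submitters' processing notes. The receptor tables that the authors deposited list, for each contig, UMI counts, read counts, V and J genes and the CDR3. Cell calling and later filters by the authors are not given in the sources used here. The labels name the 3' kit for every library, the receptor libraries included.

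A barcode was retained if it had 300 or more genes and no more than 10% mitochondrial UMIs. The matrices hold 57630074 UMIs in 6897 barcodes for HFD and 73549582 UMIs in 13227 barcodes for CD. No doublet caller was run, and barcodes with UMIs of 2 lineages were removed as an alternative. Ratios between diets carry the exact conditional interval of 2 Poisson counts. High over zero ratios have 0.5 added to each count, and genes entered them with at least 30 CPM in the higher sum, 50 UMIs in both sums and a UMI in 10% of barcodes of the higher set, in each library. Genes were ranked by the ratio nearer to 0 of the 2 libraries, both of 1 sign, and the 12 (all B), 10 (Fcer2a and Cr2 negative) or 8 (other sets) highest and lowest were named, leaving out immunoglobulin, mitochondrial, ribosomal protein and sex-linked marker genes. The gene, the classes and the 20 gene lists were chosen with earlier results of these data known. From the planned set of B-cell marker genes 1 gene is not reported here, and the set was used without it throughout. Both kinds of ratio were also computed on simulated counts with 1 common level per gene in each group. The simulation lacked the uneven spread between barcodes seen in these data, so it does not bear on their intervals. Python 3.11.15, numpy 2.4.6, scipy 1.17.1, pandas 2.3.3 and matplotlib 3.10.9 were used.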

Additional observations from a re-analysis of the deposited data

Results flagged for a closer look

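Tppp3 was also present outside the B cells and macrophages described above. In 16 HFD barcodes with 3 or more UMIs of the dendritic cell genes Cd209a and Flt3, under 2 macrophage UMIs and no B-cell or T-cell gene, it reached 533 CPM (427 to 657). The 18 such barcodes of CD had 173 CPM (107 to 265). In 5 HFD barcodes with 3 or more UMIs of the tissue macrophage genes Cbr2 and Folr2 and under 5 macrophage UMIs, it was 473 CPM (326 to 665), and in the 4 such barcodes of CD it was 58.8 CPM (7.12 to 212). Both were picked because the HFD level was above the CD level in data that no comparison above uses, so their direction is a selection. Both rest on few barcodes.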

How the results depend on the processing

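No paired analysis was possible because each diet has 1 library. Of 53 alternatives for the 7 ratios between diets, none changed direction, 44 stayed inside the counting interval and 9 left it. Equal weight per barcode gave log2 ratios of HFD over CD of 2.12 in all B barcodes, 1.87 with another V pair and 2.002 in macrophages. Thinning to 2000 UMIs gave 2.25 in IGHV11-2/IGKV14-126, 2.31 in Fcer2a and Cr2 negative and 1.89 in macrophage barcodes. Equal weight per clonotype gave 1.80 in IGHV11-2/IGKV14-126 and 1.89 with another V pair, and at least 800 genes with at most 5% mitochondrial UMIs gave 2.07 with another V pair. The causes were not tested. Leaving out the 10% of barcodes highest in Lars2 and D130009I18Rik left all 7 ratios inside their intervals.

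Of 730 alternatives for named genes, 525 kept their direction inside the counting interval, 191 kept it outside the interval and 14 reversed, and 62 more had under 50 UMIs and gave no value. Thinning came with a lower limit for Tppp3-high, 2 or more UMIs in B barcodes and 1 or more in macrophages. It took 27 of 48 named ratios outside their intervals in all B barcodes, 20 of 40 in Fcer2a and Cr2 negative ones and 14 of 32 in macrophages. It reversed 0, 2 and 8 in the same order. Of those outside, 21, 17 and 12 were nearer to 0. For the genes named in all B barcodes, IGHV11-2/IGKV14-126 barcodes alone took 20 of 25 outside, 19 of them nearer to 0, and Fcer2a and Cr2 negative barcodes alone 27 of 44, all nearer to 0. The 14 that reversed on the log2 scale were these. Krt8 in CD was -0.0040 in IGHV11-2/IGKV14-126 barcodes alone, and Slpi in CD was 0.95 with Tppp3-high at 2 or more UMIs. Thinning gave -0.052 for Atrnl1, 0.093 for Fcrl1 and 0.089 for Gm43305 in CD B barcodes, 0.13 for Tha1 and 0.071 for Irf8 in HFD macrophages, and -0.94 for H2ac24, 0.038 for Ccl5, 0.46 for Tha1, 0.15 for Cxcl1, 0.36 for Pomk and 0.10 for Irf8 in CD macrophages. Without barcodes of 2 lineages Cxcl1 was 0.039 in CD macrophages. The alternatives for named genes in macrophages and those by Cd209a, Mgl2, Clec10a, Cbr2 and Folr2 were chosen after seeing the data. The CD sets hold few Tppp3-high barcodes, 36 in IGHV11-2/IGKV14-126 and 73 in macrophages, which limits the precision of their ratios.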
